A study of Homo sapiens with 10 samples.

Results

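The Hippo pathway and its effectors YAP and TAZ were described through 10 genes: the coactivators YAP1 and WWTR1 (which encodes TAZ), their DNA-binding partner TEAD1, the upstream components LATS2 and WWC1, the angiomotin family members AMOTL1 and AMOTL2, and the target genes CTGF, CYR61 and ANKRD1. They were chosen by symbol, with earlier results of these data known. They took 10 of the 23170 gene entries and 17 of the 37557 isoform entries of each table. RNA-seq was performed on 10 samples of PC3, a human prostate cancer cell line, in 4 lines that all carry a luciferase vector. PC3-Epi (2 samples) is a population picked for bioluminescence and epithelial morphology, and PC3-EMT14 (3 samples) is a stable mesenchymal line isolated after PC3-Epi cells had been grown with macrophages. Lentiviral overexpression of OVOL1 in PC3-EMT14 gave PC3-EMT14-OVOL1 (3 samples), and that of OVOL2 gave PC3-EMT14-OVOL2 (2 samples). Both factors are zinc finger transcription factors studied as inducers of the mesenchymal-to-epithelial transition (MET). OVOL2 carried a V5 tag. The labels name PC3-EMT14 itself, with no empty vector, as the line to which the OVOL lines are compared.

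In the Hippo pathway, the kinases MST1 and MST2 (STK4 and STK3) with the scaffold SAV1 activate the kinases LATS1 and LATS2, which phosphorylate YAP and TAZ and so keep them out of the nucleus. Unphosphorylated YAP and TAZ enter the nucleus, where they bind TEAD proteins and switch on genes such as CTGF, CYR61 and ANKRD1. KIBRA (WWC1) and the merlin protein (NF2) act upstream of the kinases, and angiomotins hold YAP and TAZ at cell junctions. In epithelial cells, junctions and polarity complexes are known to favour this restraint, while YAP and TAZ activity is commonly linked with mesenchymal traits. Since control runs largely through phosphorylation and location, mRNA levels alone do not give the activity of the pathway.

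The sequence that links these genes is the TEAD motif GGAATG, and it was looked for on both strands in RefSeq promoter windows that reach from 250 bases before to 50 bases after a gene's start. Windows of 8 of the 10 genes were found (10 windows in all, with 2 each for AMOTL2 and WWTR1), which leaves CYR61 and TEAD1. The windows come from the GRCh38.p14 table of RefSeq and were placed on hg19, the build of the expression tables, by their exact sequence. The CTGF and ANKRD1 windows are shown whole because they hold the most motifs and belong to the 2 genes with the largest differences in level. They are read 5′ to 3′ on the strand of the gene, with each GGAATG in capitals.
CTGF, chr6:132272463-132272762, minus strand: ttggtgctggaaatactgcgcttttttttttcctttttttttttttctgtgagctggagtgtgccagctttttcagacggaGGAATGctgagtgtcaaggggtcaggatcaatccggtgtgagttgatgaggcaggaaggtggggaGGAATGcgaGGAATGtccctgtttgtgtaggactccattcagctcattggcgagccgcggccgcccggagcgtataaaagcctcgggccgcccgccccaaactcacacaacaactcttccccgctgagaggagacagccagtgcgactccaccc
ANKRD1, chr10:92680795-92681094, minus strand: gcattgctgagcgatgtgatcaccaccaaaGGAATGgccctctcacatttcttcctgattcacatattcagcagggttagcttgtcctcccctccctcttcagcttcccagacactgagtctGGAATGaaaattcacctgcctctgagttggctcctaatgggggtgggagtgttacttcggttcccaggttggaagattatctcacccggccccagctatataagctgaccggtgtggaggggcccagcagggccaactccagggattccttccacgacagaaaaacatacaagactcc
With positions counted from the start and negative before it, the CTGF window held GGAATG at -169, -104 and -95, and the ANKRD1 window at -220 and -128. Of the 35116 RefSeq windows, 14.0% held at least 1 GGAATG on either strand, 1.37% at least 2 and 0.128% at least 3. The ANKRD1 window also held TGATTCA at -195, a match to the AP-1 motif TGANTCA (7.71% of windows held at least 1), and at -116 the E-box CACCTG, which ZEB proteins are known to bind (20.6% of windows). The RefSeq start of ANKRD1 lies 188 bases inside its locus in the expression data, so the matches at -128 and -116 lie within that locus.

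A single TEAD motif lay in the windows of YAP1 at -162, of LATS2 at 10 and of AMOTL2 at -69, where it is read on the opposite strand as CATTCC. These are shown in stretches of 60 bases around the motif, since 1 coactivator, 1 kinase and 1 angiomotin of the pathway thus hold the letters found in its targets.
YAP1, chr11:101980989-101981048, plus strand: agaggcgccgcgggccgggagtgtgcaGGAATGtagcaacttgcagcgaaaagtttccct
LATS2, chr13:21635684-21635743, minus strand: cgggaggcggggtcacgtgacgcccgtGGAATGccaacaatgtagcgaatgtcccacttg
AMOTL2, chr3:134093326-134093385, minus strand: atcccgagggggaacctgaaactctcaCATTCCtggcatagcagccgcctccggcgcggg
The windows of AMOTL1, WWC1 and WWTR1 and the other AMOTL2 window held no GGAATG. The RefSeq start of the AMOTL2 window shown lies 117 bases inside the gene's locus in the expression data. Its match at -69 thus lies within that locus. The E-box CACCTG occurred at 2 positions in the WWC1 window (-165, on the opposite strand, and 40), a count reached by 3.49% of all windows, and at -136 on the opposite strand in the LATS2 window. A match of letters is a description and does not show that a factor binds there.

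Levels are FPKM, the number of sequenced fragments scaled by transcript length and library size. The authors' software combined the samples of a line into 1 FPKM value per comparison, so no value per sample and no SD can be given, no test was run on the pooled values, and the depth behind a value is unknown. A gene was counted as higher or lower where its FPKM values differed by over 2-fold within a table and the higher was at least 1 FPKM. The 3 comparisons with PC3-EMT14 share the PC3-EMT14 samples, so their values are given side by side. PC3-EMT14 stands in 3 tables, and its values for the 10 genes differed between them by at most 1.03-fold through a nearly constant factor. This is a rescaling and not a measure of replicate error. Levels of different tables that are set side by side carry this difference. So do the fold ranges over the lines, which divide the highest by the lowest median level of a line. Ratios to PC3-EMT14 and those between the OVOL lines stay within a table.

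The lines were checked by genes that mark their states. CDH1 (E-cadherin) was at 0.981 FPKM in PC3-EMT14 and at 16.2 FPKM with OVOL1, 39.2 FPKM with OVOL2 and 50.6 FPKM for PC3-Epi, and EPCAM stood at 23.0 against 87.6, 151 and 224 FPKM. VIM (vimentin) was at 265 FPKM in PC3-EMT14 and at 183, 76.9 and 42.5 FPKM in the other lines, and ZEB1, a repressor of CDH1, at 7.43 against 4.25, 1.77 and 0.130 FPKM. OVOL1 stood at 0.0238 FPKM for PC3-EMT14 against 11.3 FPKM in the OVOL1 line, and OVOL2 at 0.370 FPKM for PC3-EMT14 against 831 FPKM in the OVOL2 line, while PC3-Epi had 4.25 and 9.91 FPKM of the respective gene. KLK3, a marker of prostate luminal cells, was listed at 0 in every line. Of 14 macrophage markers, 13 were under 0.25 FPKM in every line, C1QA and C1QB were listed at 0, and CD68, which many cell types express, stood at 54.1 FPKM for PC3-EMT14 against 13.2 FPKM for PC3-Epi. In bulk samples, fewer cells that express a gene and less RNA per cell cannot be told apart.

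The coactivators were abundant in all lines, and the largest ratio to PC3-EMT14 among them was a lower WWTR1 level with OVOL2. YAP1 (XLOC_003608, hg19 chr11:101981192-102104154) was at 24.1 FPKM in PC3-EMT14, 21.7 FPKM with OVOL1, 22.9 FPKM with OVOL2 and 33.8 FPKM in PC3-Epi. Its log2 ratios to PC3-EMT14 were -0.16, -0.06 and 0.46, so that PC3-Epi, the highest, was 1.37-fold above PC3-EMT14. WWTR1 (XLOC_015185, chr3:149235022-149421060) was at 106 FPKM in PC3-EMT14, 106 FPKM with OVOL1, 68.1 FPKM with OVOL2 and 93.6 FPKM in PC3-Epi. The OVOL2 line was the lowest, 1.54-fold below PC3-EMT14 (log2 ratio -0.62), while PC3-Epi differed by -0.21 and the OVOL1 line by 0.00. A ratio as low as that of WWTR1 with OVOL2 was found for 5.93% of genes in that table, and 2.13% in the table that compares the OVOL lines directly (104 against 68.1 FPKM, log2 ratio -0.62). WWTR1 exceeded YAP1 in every line, by 4.39-fold in PC3-EMT14, 4.87-fold with OVOL1, 2.97-fold with OVOL2 and 2.76-fold in PC3-Epi. The 2 coactivators summed to 130 FPKM in PC3-EMT14, 127 FPKM with OVOL1, 91.1 FPKM with OVOL2 and 127 FPKM in PC3-Epi. The antisense gene WWTR1-AS1 (chr3:149374786-149379151) lies within the WWTR1 locus of the table, and whether reads were counted by strand is not given in the sources used here, so reads of the pair may not be separated.

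TEAD1, through which YAP and TAZ reach DNA, hardly differed among the lines. TEAD1 (XLOC_003182, chr11:12695969-12966284) was at 11.3 FPKM in PC3-EMT14, 9.99 FPKM with OVOL1, 10.2 FPKM with OVOL2 and 11.6 FPKM in PC3-Epi, a range of 1.17-fold. PC3-Epi and PC3-EMT14 differed by 1.01-fold in their own table. TEAD1 was not the main TEAD gene: it made up 21.4% of the summed TEAD1 to TEAD4 FPKM in PC3-EMT14, against 51.7% for TEAD2, 18.5% for TEAD4 and 8.40% for TEAD3. TEAD2 stood at 46.4% to 48.0% of the sum in the other 3 lines. The sum was 52.5 FPKM in PC3-EMT14, 51.1 FPKM with OVOL1, 49.5 FPKM with OVOL2 and 64.4 FPKM in PC3-Epi. TEAD3 was the TEAD gene past 2-fold, with 4.51 FPKM for PC3-EMT14 against 9.72 FPKM for PC3-Epi.

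Of the upstream genes, LATS2 was nearly level and WWC1 was highest in PC3-Epi. LATS2 (XLOC_005730, chr13:21547176-21635722), which encodes the kinase, was at 2.60 FPKM in PC3-EMT14, 2.79 FPKM with OVOL1, 2.76 FPKM with OVOL2 and 2.67 FPKM in PC3-Epi, a range of 1.06-fold and the narrowest of the 10 genes. LATS1 was 1.40-fold above LATS2 in PC3-EMT14 and 1.21-fold to 1.37-fold above it in the other lines. WWC1 (XLOC_016563, chr5:167719065-167899308), which encodes KIBRA, was at 3.56 FPKM in PC3-EMT14, 4.59 FPKM with OVOL1, 6.52 FPKM with OVOL2 and 10.4 FPKM in PC3-Epi. Its log2 ratios to PC3-EMT14 were 0.36, 0.89 and 1.51, in the same order as the CDH1 levels. The PC3-Epi value was 2.85-fold that of PC3-EMT14, past the threshold, and the OVOL2 value, at 1.85-fold, was just short of it. The paralog WWC2 was at 3.38 FPKM in PC3-EMT14, 4.50 FPKM with OVOL1, 4.05 FPKM with OVOL2 and 5.24 FPKM in PC3-Epi, and WWC3 stayed between 7.55 and 8.01 FPKM across the lines.

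Both angiomotin-like genes lay above their PC3-EMT14 level in the OVOL lines and in PC3-Epi. AMOTL1 (XLOC_003595, chr11:94501508-94609918) was at 4.88 FPKM in PC3-EMT14, 9.45 FPKM with OVOL1, 10.6 FPKM with OVOL2 and 13.6 FPKM in PC3-Epi. The fold over PC3-EMT14 was 1.94 for OVOL1, 2.20 for OVOL2 and 2.73 for PC3-Epi, which put the last 2 past the threshold and the first just short of it. The OVOL2 call was lost when 1 FPKM was added to each value (log2 ratio 1.00 against 1.14, just short of 2-fold). AMOTL2 (XLOC_015147, chr3:134074190-134093406) was at 6.22 FPKM in PC3-EMT14, 8.96 FPKM with OVOL1, 11.7 FPKM with OVOL2 and 10.6 FPKM in PC3-Epi. None of the 3 AMOTL2 ratios passed 2-fold (1.44, 1.90 and 1.66). AMOT, the founding member of the family, did not share the pattern: it was at 3.06 FPKM in PC3-EMT14, 2.30 FPKM with OVOL1, 2.81 FPKM with OVOL2 and 2.63 FPKM in PC3-Epi. AMOTL1 was accordingly 1.60-fold AMOT in PC3-EMT14 and 4.11-fold, 3.79-fold and 5.17-fold AMOT in the OVOL1, OVOL2 and PC3-Epi lines.

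**Figure D1:**
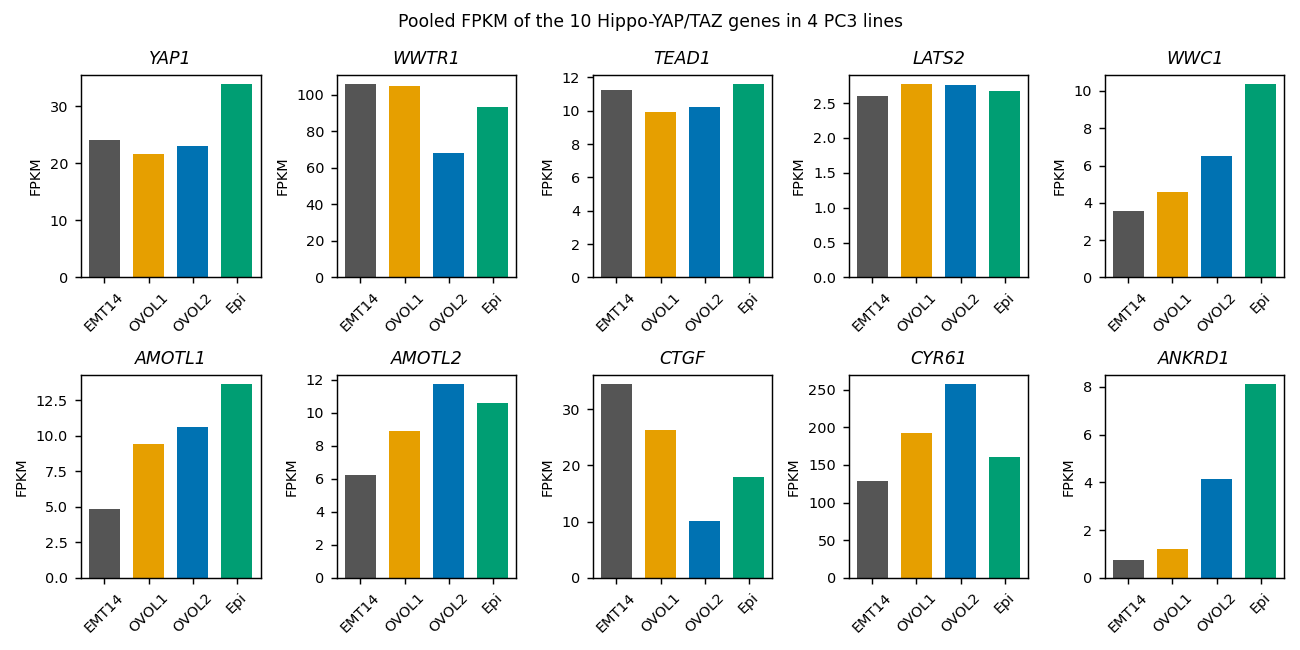
Pooled FPKM (vertical axes, each from 0) of the 10 genes in the 4 lines, left to right from PC3-EMT14 through the OVOL1 and OVOL2 lines to PC3-Epi; a bar is the value of a line, taken as the median where several tables hold it, and no replicate error exists. CTGF was highest in PC3-EMT14 (34.4 FPKM) and CYR61 highest with OVOL2 (257 FPKM), while LATS2 was nearly level.

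The 3 target genes did not share a direction: with OVOL2, CTGF was lower and CYR61 and ANKRD1 higher than in PC3-EMT14. CTGF (XLOC_018113, chr6:132269317-132272518), also named CCN2, encodes a secreted matricellular protein. CTGF was at 34.4 FPKM in PC3-EMT14, 26.5 FPKM with OVOL1, 10.1 FPKM with OVOL2 and 17.9 FPKM in PC3-Epi. It was thus highest in PC3-EMT14 and lowest with OVOL2, where the level was 3.36-fold lower than in PC3-EMT14 (log2 ratio -1.75). The PC3-Epi value was 1.96-fold lower (-0.97), just short of the threshold, and the OVOL1 value 1.30-fold lower (-0.38). With OVOL2, 0.761% of genes had a ratio as low as that of CTGF.

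CYR61 (XLOC_000462, chr1:86046444-86049648), also named CCN1, is a paralog of CTGF and encodes another secreted matricellular protein. CYR61 was at 129 FPKM in PC3-EMT14, 194 FPKM with OVOL1, 257 FPKM with OVOL2 and 161 FPKM in PC3-Epi. All 3 lines stood above PC3-EMT14, by 1.51-fold, 2.02-fold and 1.23-fold, so that the OVOL2 value was barely past the threshold. Within a line, CYR61 was 3.74-fold CTGF in PC3-EMT14, 7.32-fold with OVOL1, 25.4-fold with OVOL2 and 8.97-fold in PC3-Epi. The ratio of these 2 targets was therefore largest with OVOL2, where CTGF was lowest and CYR61 highest.

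ANKRD1 (XLOC_002898, chr10:92671857-92681032), which encodes an ankyrin repeat protein known from the heart, differed most among the 10 genes, by 10.8-fold over the lines. ANKRD1 was at 0.747 FPKM in PC3-EMT14, 1.21 FPKM with OVOL1, 4.14 FPKM with OVOL2 and 8.10 FPKM in PC3-Epi. The OVOL2 value was 5.60-fold and the PC3-Epi value 10.6-fold that of PC3-EMT14 (log2 ratios 2.48 and 3.41), and the OVOL1 value was 1.62-fold (0.70). Its level in PC3-EMT14 was under 1 FPKM, and with 1 FPKM added to each value the log2 ratios were 0.34, 1.56 and 2.37. Even in PC3-Epi it was expressed far below CYR61 and below CTGF. A ratio as high as that of ANKRD1 was found for 1.21% of genes with OVOL2 and 1.34% of genes in PC3-Epi.

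With OVOL1, 0 of the 10 genes were past 2-fold higher and 0 lower, beside 2.06% of all 12111 genes higher and 1.23% lower. With OVOL2, 3 of 10 were higher (AMOTL1, CYR61 and ANKRD1) and 1 lower (CTGF), beside 4.16% higher and 2.58% lower among 12226 genes. In PC3-Epi, 3 of 10 were higher (WWC1, AMOTL1 and ANKRD1) and 0 lower, beside 7.09% higher and 7.96% lower among 12344 genes. ANKRD1 was under 1 FPKM in PC3-EMT14, so against that line it could be counted only as higher. The median log2 ratio over the 10 genes was 0.23 for OVOL1, 0.49 for OVOL2 and 0.38 for PC3-Epi, beside 0.00, -0.04 and -0.01 over all genes. The median absolute log2 ratio was 0.37, 0.91 and 0.60 for the 10 genes and 0.15, 0.21 and 0.36 over all genes. The 10 genes were chosen with earlier results of these data known, so these counts and medians describe them and test nothing. The PC3-Epi group is written pc3 in the tables and was matched to PC3-Epi by the name of the comparison. Only its name lacks the endings (II and trim) that the other 3 groups carry. The meaning of these endings is not given in the sources used here, and their part in the PC3-Epi differences was not tested.

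**Figure D2:**
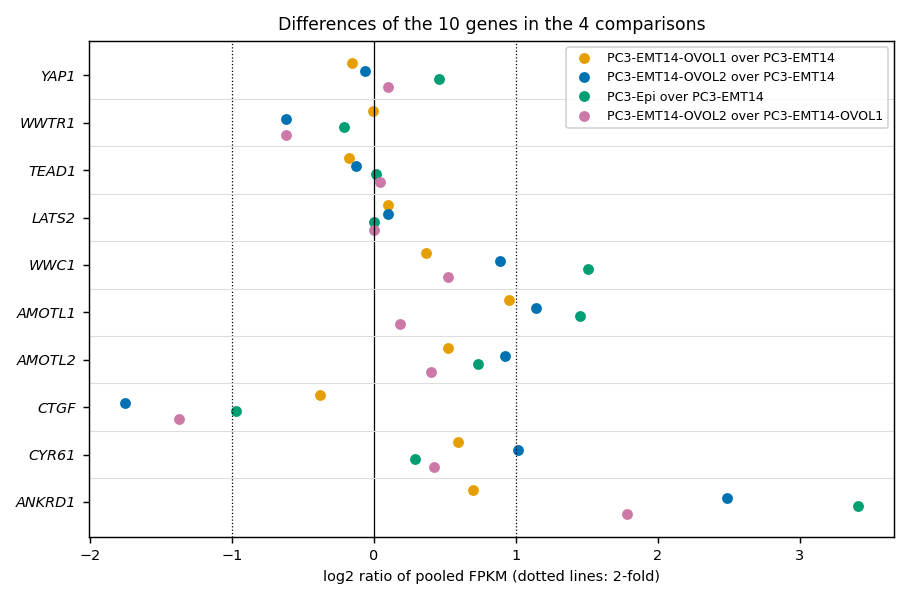
Log2 ratios of pooled FPKM (horizontal axis) of the 10 genes (rows) in the 4 comparisons (colours), with dotted lines at 2-fold; a point rests on 1 pooled value per line. ANKRD1 lies farthest to the right (3.41 in PC3-Epi over PC3-EMT14) and CTGF farthest to the left (-1.75 with OVOL2), and LATS2 and TEAD1 stay near 0.

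The direct comparison of the OVOL lines asked whether the 2 factors left these genes at different levels. CTGF was at 26.2 FPKM with OVOL1 and 10.1 FPKM with OVOL2, 2.59-fold lower (log2 ratio -1.37), and 0.471% of genes were as low. ANKRD1 was at 1.20 FPKM with OVOL1 and 4.13 FPKM with OVOL2, 3.45-fold higher (1.79), and 0.248% of genes were as high. These 2 targets were the calls among the 10 genes, 1 higher and 1 lower, beside 1.68% higher and 0.801% lower among 12113 genes. The next largest differences were WWTR1 (-0.62), WWC1 (4.54 against 6.52 FPKM, 0.52), CYR61 (192 against 257 FPKM, 0.42) and AMOTL2 (8.86 against 11.7 FPKM, 0.40). AMOTL1 (0.19), YAP1 (0.10), TEAD1 (0.05) and LATS2 (0.00) differed least. OVOL1 itself reached 11.2 FPKM in its line in this table and OVOL2 831 FPKM in its own, so the 2 factors were not compared at like mRNA levels.

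**Figure D3:**
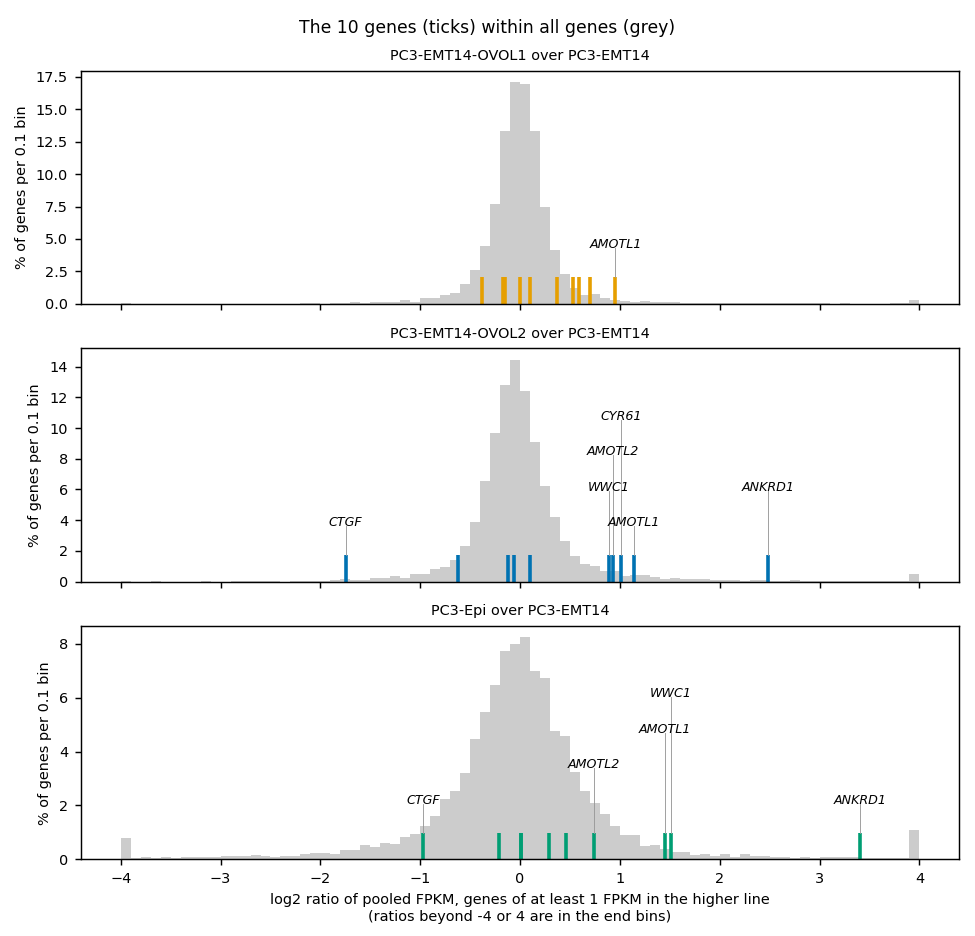
Histograms of the log2 ratio of pooled FPKM over all genes of at least 1 FPKM in the higher line (grey, percent of genes per bin of 0.1) for the 3 comparisons with PC3-EMT14, with a coloured tick for each of the 10 genes. With OVOL2, ANKRD1 (2.48) and CTGF (-1.75) lie on opposite flanks; the grey distribution is widest in PC3-Epi.

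Levels also placed the 10 genes in different parts of the transcriptome. Among the 11929 genes of at least 1 FPKM in PC3-EMT14, with a median of 11.3 FPKM, CYR61 stood above 95.2% and WWTR1 above 94.0%. CTGF stood above 80.0%, YAP1 above 71.8% and TEAD1 above 49.7%. The restraining genes were lower, with AMOTL2 above 32.5%, AMOTL1 above 25.9%, WWC1 above 19.1% and LATS2 above 13.0% of genes. ANKRD1, below 1 FPKM, stood outside that set.

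The wider pathway was read from lists written with earlier results of these data known. Of 27 genes of the Hippo core and its upstream regulators (LATS2, WWC1, AMOTL1 and AMOTL2 included), 24 reached 1 FPKM. With OVOL1 0 were higher and 0 lower, with OVOL2 1 was higher (AMOTL1) and 0 lower, and in PC3-Epi 3 were higher (AMOTL1, WWC1 and STK3) and 0 lower. All genes had 2.06% higher and 1.23% lower with OVOL1, 4.16% and 2.58% with OVOL2, and 7.09% and 7.96% in PC3-Epi. Beside these shares, the counts with either OVOL were near the background. In PC3-Epi they were 3 and 0 of 24, small counts whose distance from the background was not tested. The list's median log2 ratios were 0.06, -0.02 and 0.04, close to those of all genes. STK3, the MST2 kinase, stood at 3.91 FPKM for PC3-EMT14 against 10.8 FPKM for PC3-Epi, but at 4.27 FPKM with OVOL1 and 3.15 FPKM with OVOL2. STK4, the MST1 kinase, stood at 9.80 FPKM for PC3-EMT14 against 9.92 FPKM for PC3-Epi. SAV1, the scaffold of these kinases, stood at 8.96 FPKM for PC3-EMT14 against 16.4 FPKM for PC3-Epi, 1.84-fold higher, and NF2 at 37.7 and 32.1 FPKM.

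Of 10 genes of YAP, TAZ and their nuclear partners, 7 reached 1 FPKM with either OVOL, and in either OVOL line 0 were higher and 0 lower. In PC3-Epi 9 reached it, 3 were higher and 0 lower. All genes had 2.06% higher and 1.23% lower with OVOL1, 4.16% and 2.58% with OVOL2, and 7.09% and 7.96% in PC3-Epi. Beside these shares, 0 of 7 with either OVOL was near the background. TEAD3 is given above, and the others, VGLL1 and VGLL3, encode vestigial-like proteins that bind TEADs. VGLL1 stood at 0.00345 FPKM for PC3-EMT14 against 1.12 FPKM for PC3-Epi, and VGLL3 at 0.152 and 1.12 FPKM, so both were barely past the floor in PC3-Epi and under it elsewhere. Both could therefore be counted only as higher. Over the 7 genes that reached 1 FPKM in all 3 comparisons, the median log2 ratios were -0.16, -0.13 and 0.15.

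Genes known as YAP and TAZ targets were split. Of 22 targets (CTGF, CYR61, ANKRD1, AMOTL2 and LATS2 included), 20 reached 1 FPKM. With OVOL1 1 was higher and 1 lower, with OVOL2 4 were higher and 2 lower, and in PC3-Epi 3 were higher and 3 lower. All genes, as given above, had 2.06% higher and 1.23% lower with OVOL1, 4.16% and 2.58% with OVOL2, and 7.09% and 7.96% in PC3-Epi. The median log2 ratios of 0.09, 0.09 and -0.18 had no common sign. TGFB2, a secreted cytokine of the TGF-beta family, was past 2-fold in all 3 comparisons, from 1.10 FPKM in PC3-EMT14 to 3.44 FPKM with OVOL1, 10.3 FPKM with OVOL2 and 24.9 FPKM in PC3-Epi. CCDC80, an extracellular matrix protein, was lower in all 3, from 7.31 FPKM in PC3-EMT14 to 2.65, 2.34 and 2.46 FPKM.

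The other targets outside the 10 genes that passed the threshold did so in 1 comparison each. IGFBP3, which binds insulin-like growth factors, stood at 356 FPKM for PC3-EMT14 against 83.0 FPKM for PC3-Epi, and at 206 FPKM with OVOL1 and 213 FPKM with OVOL2. NT5E, the surface nucleotidase CD73, was at 29.5 FPKM in PC3-EMT14, 7.28 FPKM in PC3-Epi and 14.5 FPKM with OVOL2. F3, tissue factor, stood at 1.31 FPKM for PC3-EMT14 against 3.73 FPKM for PC3-Epi. NUAK2, an AMPK-related kinase, stood at 0.942 FPKM for PC3-EMT14 against 2.21 FPKM with OVOL2. NUAK2 was under 1 FPKM in PC3-EMT14, as was ANKRD1, so both could pass the floor only as higher.

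**Figure D4:**
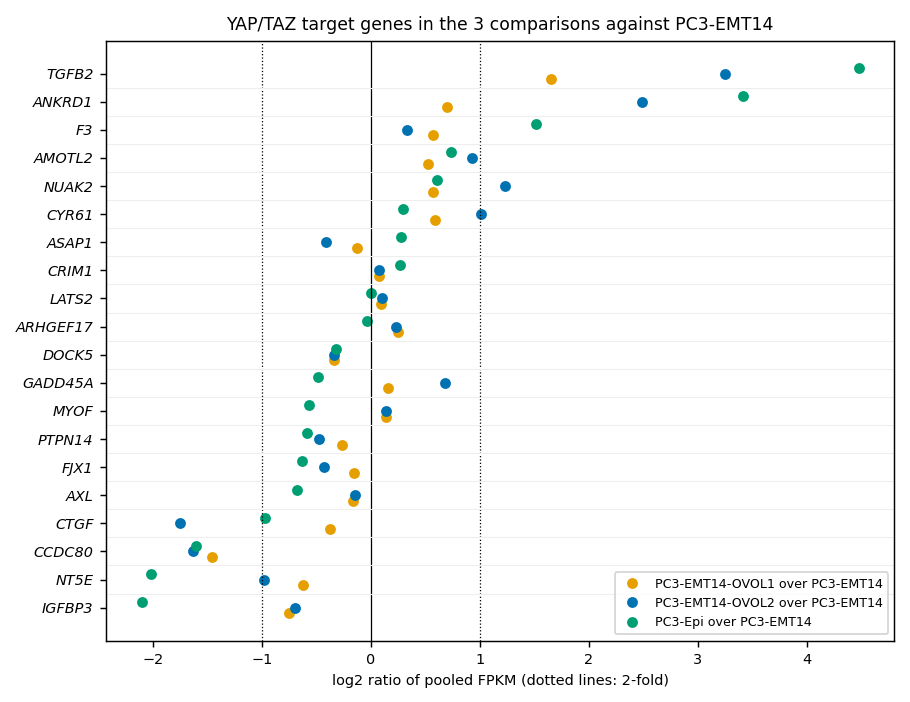
Log2 ratio of pooled FPKM (horizontal axis, dotted lines at 2-fold) of the 20 YAP and TAZ target genes that reached 1 FPKM (rows, ordered by PC3-Epi) in the 3 comparisons with PC3-EMT14 (colours). TGFB2 and CCDC80 lie past the dotted lines in all 3 comparisons, on opposite sides, and CTGF past them with OVOL2.

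YAP1, WWTR1 and WWC1 had more than 1 isoform entry (4, 3 and 3), while the other 7 genes had 1 each. An isoform is listed with its gene's locus alone, and which exons differ was not analysed here. The YAP1 isoform TCONS_00006005 made up 40.3% of YAP1 FPKM in PC3-EMT14 and 56.3% with OVOL2, and TCONS_00006006 38.2% and 29.2%. In PC3-Epi TCONS_00006006 stood at 20.0%. The least abundant YAP1 isoform in PC3-EMT14, TCONS_00006008, went in opposite directions: 1.76 FPKM for PC3-EMT14 stood against 0.393 FPKM with OVOL2, and 1.78 FPKM against 6.77 FPKM for PC3-Epi in the other table. The largest YAP1 shift in share was 15.9 percentage points with OVOL2 and 18.2 points in PC3-Epi, sizes reached by 7.58% of 4708 and 7.56% of 4605 genes with several isoforms. With OVOL1 it was 4.90 points, reached by 30.1% of 4710 genes. The authors' software gave the status NOTEST to TCONS_00006005 with OVOL2 and to TCONS_00006008 in PC3-Epi.

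For WWTR1, TCONS_00024682 was the main isoform in every line, from 72.6% in PC3-EMT14 to 80.6% in PC3-Epi. With OVOL2, TCONS_00024681 was at 13.4 FPKM beside 28.7 FPKM for PC3-EMT14 (log2 ratio -1.10), and TCONS_00024682 at 54.7 beside 76.0 FPKM (-0.48). For WWC1, TCONS_00026957 made up 25.0% in PC3-EMT14, 45.7% for OVOL1, 38.3% for OVOL2 and 28.4% for PC3-Epi. The WWC1 shift with OVOL1, 20.8 points, was reached by 2.31% of 4710 genes, though it rests on values of 0.891 and 2.10 FPKM. All WWTR1 isoforms with OVOL2 and all WWC1 isoforms with OVOL1 carried the status NOTEST. The split of reads over isoforms is an estimate, and its error is not known here.

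**Figure D5:**
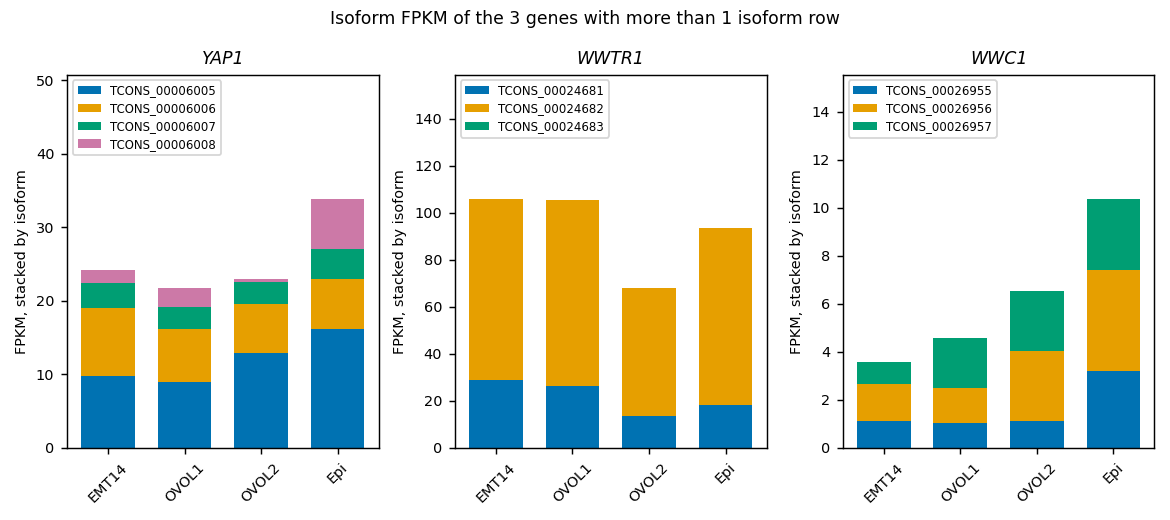
Isoform FPKM (vertical axes, stacked from 0) of YAP1, WWTR1 and WWC1 in the 4 lines, with a colour for each isoform of a gene; PC3-EMT14 and PC3-EMT14-OVOL1 are from their common table and the other lines from their tables with PC3-EMT14. The YAP1 isoform TCONS_00006008 nearly vanishes with OVOL2 (0.393 FPKM) and is largest in PC3-Epi (6.77 FPKM).

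Genes next to the 10 were read to see whether whole regions moved. Around ANKRD1, the 5 genes that start within 1 Mb and reached 1 FPKM had a median log2 ratio of -0.13 with OVOL1 and -0.21 with OVOL2, and the highest of them with OVOL2 was 0.06, against 2.48 for ANKRD1. In PC3-Epi the 6 neighbours ran from -2.00 to 1.63 with a median of -0.09, against 3.41 for ANKRD1, and 1 was past 2-fold higher and 1 lower. Around CTGF, the 8 neighbours had a median of -0.06 with OVOL2, from -1.23 to 1.57, against -1.75 for CTGF. Around AMOTL1, the 15 neighbours had a median of -0.26 with OVOL2 and 0.29 in PC3-Epi, against 1.14 and 1.45 for AMOTL1. They ran from -1.93 to 1.70 with OVOL2 and from -4.30 to 0.69 in PC3-Epi, so that at least 1 neighbour lay above AMOTL1 with OVOL2. For YAP1 in PC3-Epi, 0.46 stood against a median of 0.36 over 8 neighbours, which ran from -0.62 to 0.93. With OVOL2, 3 of its 9 neighbours were past 2-fold higher (up to 2.01) and 0 lower, against -0.06 for YAP1. Of all genes, 4.16% were higher with OVOL2.

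Of the 10 genes, ANKRD1 varied by over 4-fold across the lines, and its pattern was compared with those of 11247 genes of at least 1 FPKM in all lines. The nearest by Euclidean distance between the 3 log2 ratios to PC3-EMT14 were RBM47 (distance 0.718), which encodes an RNA-binding protein, and EFEMP1 (0.719), which encodes an extracellular matrix glycoprotein. RBM47 had log2 ratios of 0.83 for OVOL1, 1.78 for OVOL2 and 3.40 for PC3-Epi, and EFEMP1 had 1.30, 2.26 and 3.73, beside 0.70, 2.48 and 3.41 for ANKRD1. ANKRD1 itself was under 1 FPKM in PC3-EMT14, so its ratios depend on the pseudocount, as given above.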

How the data were processed

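RNA-seq of 10 samples in 4 groups was analysed, with groups taken from the sample titles. The authors used TopHat to align 50-base reads, sequenced from both ends, to UCSC transcripts of hg19. They then compared groups pairwise by Cuffdiff, scaling by the upper quartile and by compatible hits and correcting for sequence bias and for reads of several origins. The 8 deposited tables (4 for genes and 4 for isoforms) hold FPKM values made by the authors, with the samples of a group pooled into 1 value. Groups in the tables were matched to the labels by the names of the comparisons. The tables also hold the fold change, statistic, p-value and q-value of the authors' own comparisons, and these were not used; 0 columns of per-sample values were left unused. All 10 genes carried the status OK in the 4 gene tables, and some isoforms NOTEST.

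Ratios of FPKM were computed within a table in Python 3.11.15 (numpy 2.4.6, pandas 2.3.3; plots with matplotlib 3.10.9), with no pseudocount, a threshold of 2-fold and at least 1 FPKM required of the higher value. No test was run, since the values are pooled and the authors' test columns were left out. FPKM takes transcript length and library size out of a value but keeps no depth. Levels of a line across comparisons, and the fold ranges over the lines, come from tables normalized separately.

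The members and lists were chosen with earlier results of these data known. The genes named are the 10 members in every comparison, the TEAD, LATS, AMOT and WWC families, STK3, STK4, SAV1 and NF2 by level, up to 8 other genes per list past 2-fold in the most comparisons with PC3-EMT14 (largest ratio first), the 2 genes nearest in pattern to a member that varies at least 4-fold, and CDH1, EPCAM, VIM, ZEB1, OVOL1 and OVOL2 as a check. KLK3, CD68, C1QA, C1QB and the AP-1 subunits fall outside this rule and were named after their values were seen. Positions are those of the tables on hg19, counted from 1; WWTR1-AS1 is from GENCODE on that assembly. The alternatives tried were thresholds of 1.5-fold and 4-fold, no floor and a floor of 5 FPKM, pseudocounts of 0.1 and 1 FPKM, centring on the median gene, sums of isoforms, and indirect ratios of the OVOL lines.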

Additional observations from a re-analysis of the deposited data

How the results depend on the processing

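No paired analysis was possible because the tables hold 1 pooled value per group and their columns carry no replicate numbers, and leaving out a sample could not be run for the same reason. Of the 170 alternative log2 ratios of the 10 genes (pseudocounts, centring, sums of isoforms, indirect ratios), 168 kept their sign and their side of the 2-fold threshold, and 0 turned a called direction. The 2 that moved were AMOTL1 with OVOL2, at 1.00 with a pseudocount of 1 FPKM against 1.14, and LATS2 between the OVOL lines, at -0.01 as an indirect ratio against 0.00. Most of these alternatives could hardly come out otherwise. A pseudocount cannot turn a sign, and the sums of isoforms nearly repeat the gene values. Centring and indirect ratios shift all genes of a comparison by about the same small amount. The count therefore says nothing of replicate error. The number of genes called depended on the fold threshold. At 1.5-fold it was 3 for OVOL1, 7 for OVOL2 and 5 for PC3-Epi, against 0, 4 and 3, beside 8.15%, 14.5% and 30.9% of all genes past 1.5-fold in either direction. At 4-fold it was 1 with OVOL2 and 1 in PC3-Epi (ANKRD1 in both), and 0 between the OVOL lines against 2. Of all genes, 2.09%, 5.72% and 0.322% passed 4-fold in either direction in these comparisons. A floor of 5 FPKM ended the ANKRD1 call wherever the OVOL2 line was the higher, which left 1 call between the OVOL lines (CTGF) and 3 of OVOL2 over PC3-EMT14 (AMOTL1, CTGF and CYR61). With that floor, 1.71% and 4.77% of all genes that reached it were past 2-fold in these comparisons. Counts under the other alternatives were within 1.5 times those reported. The lack of values per sample and of depth limits every comparison.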

Other observations

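Subunits of AP-1, a transcription factor that often binds beside TEAD, were read as a further list of 7 genes, of which 5 reached 1 FPKM and 0 passed 2-fold in any of the 3 comparisons with PC3-EMT14. All genes had 2.06% higher and 1.23% lower with OVOL1, 4.16% and 2.58% with OVOL2, and 7.09% and 7.96% in PC3-Epi. Beside these shares, 0 of 5 subunits was near the background. FOSL1 was by far the most abundant, at 288 FPKM in PC3-EMT14, 329 FPKM with OVOL1, 276 FPKM with OVOL2 and 220 FPKM in PC3-Epi. JUN was at 29.0 FPKM in PC3-EMT14 and at 15.6, 14.9 and 16.2 FPKM in the OVOL1, OVOL2 and PC3-Epi lines, just short of 2-fold lower in each. JUNB stood at 22.8 FPKM for PC3-EMT14 against 43.1 FPKM with OVOL2, 1.89-fold higher. FOS and FOSB were under 1 FPKM in every line.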
